A study of Mus musculus with 6 samples.

Results

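The genes followed here are the D-type cyclins Ccnd1, Ccnd2 and Ccnd3, the kinases Cdk4, Cdk6 and Cdk2, the E-type cyclins Ccne1 and Ccne2, the retinoblastoma gene Rb1 and the transcription factor gene E2f1. Their probes were taken from a mouse bead array table by gene symbol in the platform annotation, a rule that uses no measured value. The genes themselves were chosen with earlier results of these data known, so their counts of calls are not those of a blind choice. All 10 genes had probes, among 19057 genes named on the array. Of their 22 probes, 20 were tested, because their detection p-value, the chance of so bright a signal from background alone, fell under 0.05 on 3 or more of the 6 arrays. Total RNA came from mouse hybridomas, which are immortal fusions of a lymphocyte and a tumour cell, kept in RPMI medium with fetal calf serum. Each of the 2 groups had 3 arrays. The IL-17-producing group carried the clone name S2 and the IL-17-non-producing group the clone name DE3, so each group stands for 1 hybridoma. The labels give no treatment, parent lymphocyte, mouse strain or fusion partner. Nothing in them says that the replicates were separate cultures, so every p-value reflects only the spread between these samples, and this spread may be technical.

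Passage from G1 into S phase is governed by a relay of cyclins and kinases. D-type cyclins respond to growth signals and activate Cdk4 and Cdk6, which begin the phosphorylation of the retinoblastoma protein. This releases E2F factors, which switch on genes of DNA synthesis and the E-type cyclins, and cyclin E with Cdk2 completes the phosphorylation. Lymphocytes rely mainly on cyclins D2 and D3, and Cdk6 is the prominent D-cyclin partner in immature T cells.

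Mean signal per array was 398.6 to 481.6 on the producing arrays and 505 to 559.5 on the non-producing arrays, and 36.92% to 37.42% against 37.96% to 39.4% of probes were detected. Precision is limited by having 3 arrays per group. Arrays of one group correlated at 0.9951 to 0.9968 over the tested probes and arrays of different groups at 0.9771 to 0.9814. The 6 arrays shared 1 chip, where the producing arrays sat next to each other and so did the non-producing arrays. Position on the chip and hybridoma therefore cannot be told apart. Il17a and Il17f were detected on 0 of the 6 arrays, so these probes could not check the labels. Of 9 T cell markers with a probe, 7 were tested, and only Cd5 was never detected. Of the 7, 2 were higher and 3 lower, against 18.1% and 18.6% of all tested genes. The summed linear level of the 9 was 41390 to 43150 on the producing arrays and 50230 to 53280 on the non-producing arrays. Its part in the differences below was not tested. The 6 myeloid and 5 fibroblast markers with a probe were never detected. Of 3 B cell markers with a probe, Cd79b and Pax5 were never detected and Ms4a1 was detected on 1 producing array.

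Of the 10 genes, Ccnd1, Ccnd3, Ccne1 and Ccne2 rose in the producing hybridoma, by 1.31-fold to 1.59-fold. Cdk6 fell 1.86-fold and Ccnd2 fell 1.52-fold. Cdk4, Cdk2, Rb1 and E2f1 did not pass the test, and their estimates lay within 0.12 of 0 on the log2 scale. In number, 6 of 10 genes passed a Benjamini-Hochberg adjusted p of 0.05 in limma's moderated test, against 36.7% of the 9395 tested genes of the array. Genes higher in the producing hybridoma made up 4 of the 10, against 18.1% of all tested genes, and genes lower made up 2 of the 10, against 18.6%. The groups of arrays did not overlap in 7 of the 10 genes, against 51.3% of all tested genes. Calls were thus common all over the array. The 6 called genes differed by 0.39 to 0.89 in absolute log2, beside a median of 0.47 over all called genes. In bulk RNA, fewer cells with a transcript and less of it per cell cannot be told apart.

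**Figure D1:**
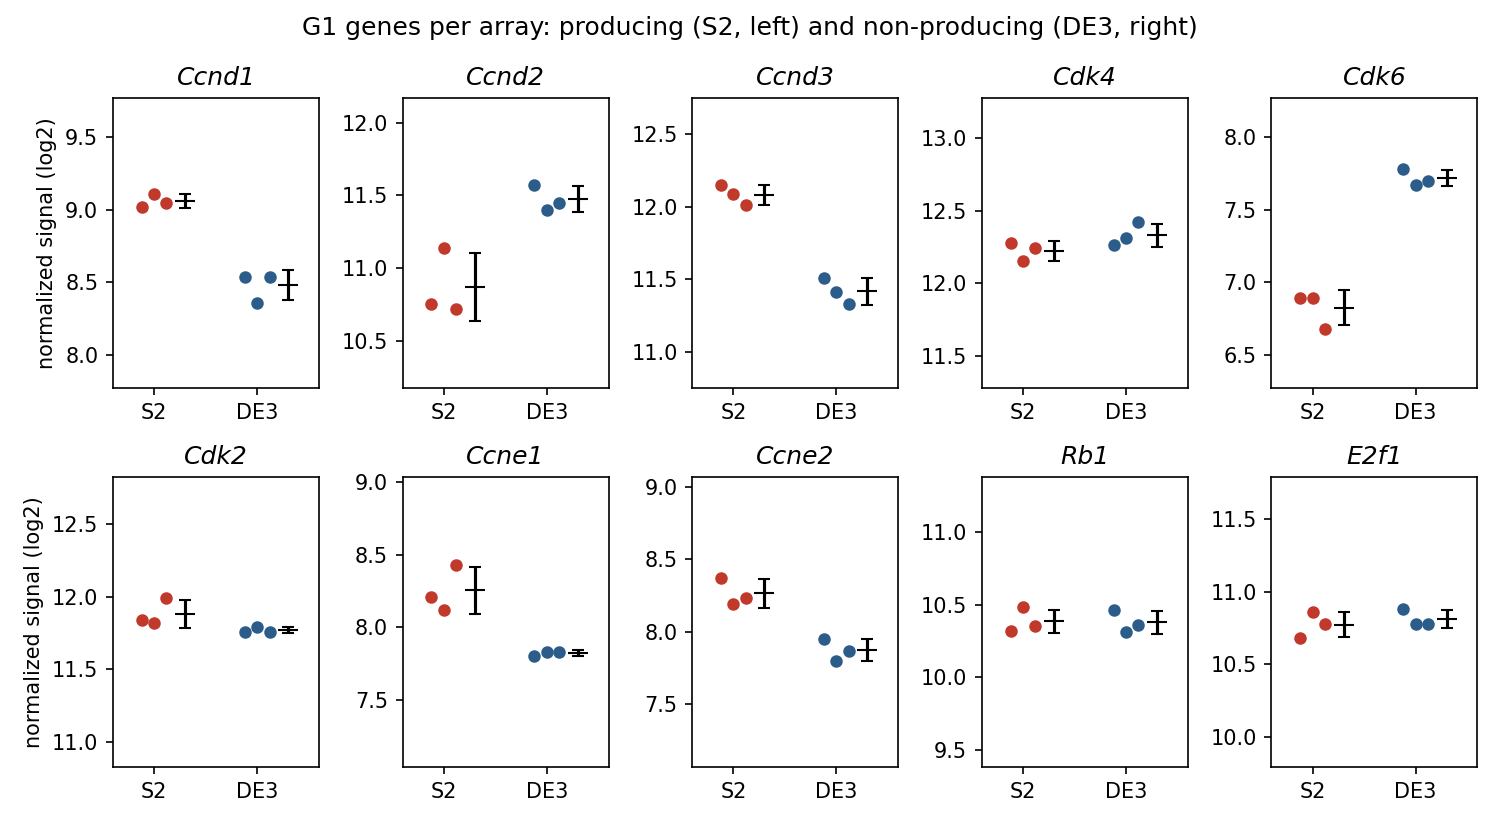
Normalized signal (log2) of the brightest tested probe of each gene, with 1 point per array, the 3 producing arrays (S2) left of the 3 non-producing arrays (DE3), and bars for the mean and SD. All panels span the same number of log2 units but start at different levels, since levels of different probes cannot be compared. The groups stand apart upward in Ccnd1, Ccnd3, Ccne1, Ccne2 and narrowly Cdk2, stand apart downward in Ccnd2 and Cdk6, and overlap in Cdk4, Rb1 and E2f1.

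The promoter windows printed here lie around annotated transcription starts. The promoter table of RefSeq (GRCm38.p6, 250 bases before to 50 after a start) held 6 of the 10 genes, namely Ccnd3 with 2 starts, Cdk4, Cdk6, Cdk2, Ccne1 and E2f1. Those of Ccnd3 and Cdk6 are printed because these genes had the largest rise and the largest fall among the 10. Ccne1 is printed as the E-type cyclin that the table held, and Cdk2 as the gene with a motif match. The start in the Cdk6 window lies 2889 bases inside the annotated 5′ end of the gene, that of E2f1 466 bases inside and the downstream start of Ccnd3 88416 bases inside, so these windows leave out any start at that end. The other windows lie at the 5′ end of their genes. Each reads 5′ to 3′ on the gene's own strand, in the order Ccnd3 upstream start chr17:47504801-47505100 (plus), Ccnd3 downstream start chr17:47593217-47593516 (plus), Cdk6 chr5:3343643-3343942 (plus), Ccne1 chr7:38107441-38107740 (minus) and Cdk2 chr10:128705002-128705301 (minus). Capitals mark the match to an E2F-type word.
Ccnd3 upstream start: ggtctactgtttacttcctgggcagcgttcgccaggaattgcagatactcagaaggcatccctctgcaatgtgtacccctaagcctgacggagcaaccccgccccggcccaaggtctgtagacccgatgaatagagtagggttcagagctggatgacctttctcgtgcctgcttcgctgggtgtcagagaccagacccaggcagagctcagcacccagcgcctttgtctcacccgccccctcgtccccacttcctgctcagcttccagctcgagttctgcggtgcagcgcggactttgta
Ccnd3 downstream start: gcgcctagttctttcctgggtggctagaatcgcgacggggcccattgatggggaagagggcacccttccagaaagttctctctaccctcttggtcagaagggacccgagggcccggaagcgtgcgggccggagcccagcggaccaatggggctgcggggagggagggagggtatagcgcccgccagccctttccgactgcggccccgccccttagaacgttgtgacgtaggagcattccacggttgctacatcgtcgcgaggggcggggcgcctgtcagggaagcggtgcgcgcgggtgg
Cdk6: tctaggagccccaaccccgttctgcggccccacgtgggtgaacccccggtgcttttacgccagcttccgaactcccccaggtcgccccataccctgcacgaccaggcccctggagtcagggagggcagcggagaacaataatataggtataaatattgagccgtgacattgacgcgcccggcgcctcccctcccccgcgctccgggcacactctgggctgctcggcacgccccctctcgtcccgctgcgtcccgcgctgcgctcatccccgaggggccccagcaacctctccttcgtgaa
Ccne1: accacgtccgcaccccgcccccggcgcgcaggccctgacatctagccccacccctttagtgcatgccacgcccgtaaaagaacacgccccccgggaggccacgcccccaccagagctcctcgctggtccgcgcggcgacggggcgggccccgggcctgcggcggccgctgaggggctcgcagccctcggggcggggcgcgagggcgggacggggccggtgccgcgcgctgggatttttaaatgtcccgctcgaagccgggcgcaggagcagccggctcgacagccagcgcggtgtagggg
Cdk2: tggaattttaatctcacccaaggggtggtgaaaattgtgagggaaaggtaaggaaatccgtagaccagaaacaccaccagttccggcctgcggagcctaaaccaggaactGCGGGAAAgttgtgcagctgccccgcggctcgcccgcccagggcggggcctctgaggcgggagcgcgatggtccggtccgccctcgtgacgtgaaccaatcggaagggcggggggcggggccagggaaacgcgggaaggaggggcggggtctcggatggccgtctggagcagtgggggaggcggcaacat

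The 4 words searched on both strands were TTTCCCGC, TTTCGCGC, TTTGCCGC and TTTGGCGC, words of equal length, so that none lies inside another. Cdk2 held 1 match, GCGGGAAA, which is TTTCCCGC on the other strand and begins at position -140 from the start. The windows of Ccnd3, Cdk4, Cdk6, Ccne1 and E2f1 did not hold these letters, which says nothing of other starts of Cdk6 and E2f1. Of all 32851 promoters of 300 bases in the table, 744 (2.26%) held at least 1 of the words. A match is a description of letters in this window only.

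The D-type cyclins did not move together. Ccnd3 and Ccnd1 rose in the producing hybridoma and Ccnd2 fell, and for each gene the tested probes shared 1 direction. Over the probes of all 10 genes, 12 of 20 tested probes passed the threshold, against 33.9% of the 17445 tested probes of the array. Of these, 8 were higher (17.0% of all tested probes) and 4 lower (16.9%). The groups did not overlap in 14 of the 20 probes, against 47.8% of all tested probes.

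Ccnd3, on chromosome 17, encodes cyclin D3, the D-type cyclin that developing T cells need for their expansion after the pre-T cell receptor signal. Its brightest probe, ILMN_3131063, read 12.15, 12.09 and 12.01 (normalized log2 signal) in producing 1 to 3, against 11.51, 11.41 and 11.33 in non-producing 1 to 3. Every producing array lay above every non-producing array. The means were 12.08 ± 0.07 and 11.42 ± 0.09 (SD, n = 3 each), a log2 difference of 0.67 ± 0.08 (SE) with a limma adjusted p of 0.000644. The probe ILMN_1246473 read 9.03, 8.90 and 9.03 in the producing hybridoma, against 8.23, 7.79 and 7.97 in the non-producing hybridoma. The gap of 0.99 ± 0.12 (SE) on the log2 scale, 1.98-fold, was the largest of any member probe (limma adjusted p = 0.000513). Its remaining probe, ILMN_2661849, was detected on 1 producing and 1 non-producing array and was not tested. The median log2 difference of the 741 tested probes on chromosome 17 was 0.29. With every chromosome's median removed, a setting also used below, the difference of Ccnd3 was 0.37 (limma adjusted p = 0.0120).

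Ccnd1 on chromosome 7 encodes cyclin D1, the D-type cyclin best known from epithelial and mesenchymal cells and low in normal lymphocytes. It was detected on all 6 arrays with each of its 3 probes. ILMN_1221503 read 9.02, 9.11 and 9.05 in producing 1 to 3, against 8.54, 8.36 and 8.54 in non-producing 1 to 3. The 2 groups lay clearly apart, with a log2 difference of 0.58 ± 0.08 (SE), 1.49-fold (limma adjusted p = 0.00127). Before background correction and normalization the same probe gave signals of 512.8, 578.3 and 448.4 in the producing hybridoma, against 498.3, 402.9 and 441.2 in the non-producing hybridoma. Those unadjusted signals overlapped, and the dependence on scaling is given further on. ILMN_2601471 read 8.54, 8.63 and 8.64, all above the 8.15, 7.87 and 8.12 of the non-producing arrays, a log2 difference of 0.56 ± 0.10 (SE; limma adjusted p = 0.00294). The dimmest probe, ILMN_2669793, read 6.04, 6.31 and 6.51 in the producing hybridoma, against 5.84, 5.81 and 6.04 in the non-producing hybridoma. Its groups touched, and its log2 difference of 0.39 ± 0.13 (SE) passed narrowly (limma adjusted p = 0.0480). Leaving out any single array other than producing 1 removed the call, with limma adjusted p-values of 0.0507 to 0.136.

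Ccnd2, on chromosome 6, encodes cyclin D2, which lymphocytes induce on antigen or cytokine stimulation. ILMN_2700166 read 10.75, 11.14 and 10.72 in producing 1 to 3, against 11.57, 11.40 and 11.45 in non-producing 1 to 3. All producing arrays were lower, and producing 2 stood nearest to the non-producing group. The log2 difference was -0.61 ± 0.12 (SE), 1.52-fold lower in the producing hybridoma (limma adjusted p = 0.00678). ILMN_2700168 read 10.22, 10.52 and 10.34 in the producing hybridoma, against 10.93, 10.73 and 10.81 in the non-producing hybridoma, a log2 difference of -0.46 ± 0.10 (SE; limma adjusted p = 0.00912). ILMN_1225932 read 7.23, 7.14 and 7.30, against 7.79, 7.81 and 7.59 in the non-producing hybridoma, a log2 difference of -0.50 ± 0.09 (SE; limma adjusted p = 0.00384). All 3 probes pointed in 1 direction, although probes of 1 gene share the same RNA. The groups did not overlap in any of the 3, beside 47.8% of all tested probes. A further probe, ILMN_1235724, was not detected on any array. Unadjusted signals of ILMN_2700166 were 1615.8, 2292.4 and 1344.5 on the producing arrays, against 3711.0, 2916.8 and 2995.7 on the non-producing arrays, so the deposited signals of Ccnd2 did not overlap either.

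**Figure D2:**
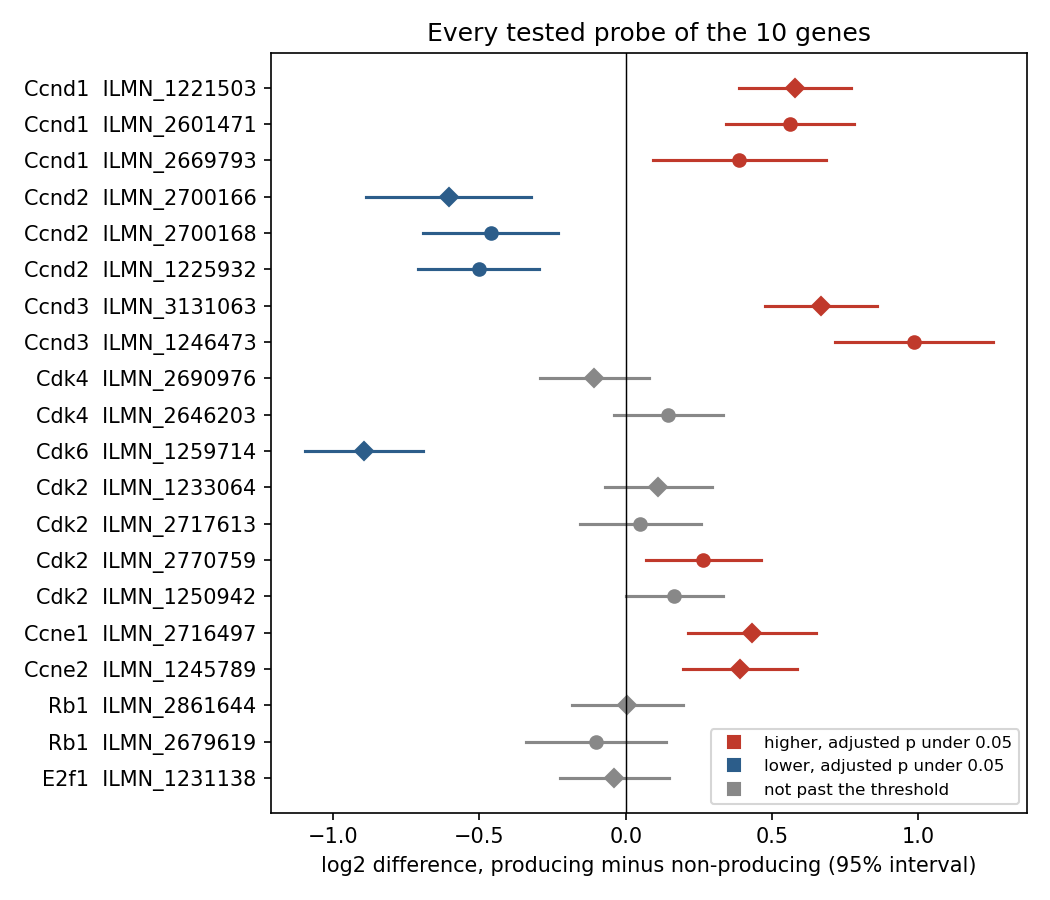
Log2 difference of every tested probe of the 10 genes, producing minus non-producing, with its 95% interval from the limma fit. Diamonds mark the brightest probe of a gene and circles its other probes. The probes of Ccnd1 and Ccnd3 lie right of 0, those of Ccnd2 and Cdk6 lie left of it, and those of Cdk4 fall on both sides.

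Cdk6, the kinase that pairs with D-type cyclins, had the largest difference of any of the 10 genes in the producing hybridoma, a fall. Its only probe, ILMN_1259714, for a gene on chromosome 5, read 6.89, 6.89 and 6.68 in producing 1 to 3, against 7.78, 7.67 and 7.70 in non-producing 1 to 3. The groups were separated by several times their own spread. The means were 6.82 ± 0.12 and 7.72 ± 0.06 (SD, n = 3 each), and the log2 difference was -0.89 ± 0.09 (SE; limma adjusted p = 0.00019). Unadjusted signals were 153.1, 160.0 and 124.6 in the producing hybridoma, against 311.6, 265.5 and 265.0 in the non-producing hybridoma. These did not overlap either. The log2 difference was -0.69 both without background correction and in the authors' processed values, which were not background-subtracted. No second probe was on the array to check it.

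Cdk4 on chromosome 10, which encodes the other D-cyclin kinase, did not pass the test, and its probes pointed opposite ways. ILMN_2690976 read 12.28, 12.15 and 12.24 in producing 1 to 3, against 12.26, 12.31 and 12.42 in non-producing 1 to 3. The groups overlapped, with a log2 difference of -0.11 (95% interval -0.29 to 0.08; limma adjusted p = 0.352). ILMN_2646203 read 9.70, 9.65 and 9.81 in the producing hybridoma, against 9.53, 9.55 and 9.65 in the non-producing hybridoma. The lowest producing and the highest non-producing value both round to 9.65, but before rounding the groups did not overlap. This probe was not called either, with a log2 difference of 0.15 (95% interval -0.04 to 0.33; limma adjusted p = 0.205).

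Both E-type cyclins, the partners of Cdk2 and classical targets of E2F, rose in the producing hybridoma. Ccne1, on chromosome 7, read 8.21, 8.12 and 8.43 with its probe ILMN_2716497 in producing 1 to 3, against 7.80, 7.83 and 7.83 in non-producing 1 to 3. All producing arrays were higher, and the non-producing arrays lay almost at 1 level. The log2 difference was 0.43 ± 0.10 (SE), 1.35-fold (limma adjusted p = 0.00974). Ccne2, on chromosome 4, read 8.37, 8.19 and 8.23 with its probe ILMN_1245789 in the producing hybridoma, against 7.95, 7.80 and 7.87 in the non-producing hybridoma. The groups did not overlap, and the log2 difference was 0.39 ± 0.09 (SE), 1.31-fold (limma adjusted p = 0.00914). Unadjusted signals of Ccne1 were 314.1, 313.9 and 309.7 on the producing arrays, against 315.1, 292.3 and 285.5 on the non-producing arrays. For Ccne2 they were 343.4, 326.5 and 274.5, against 344.7, 287.4 and 291.1 on the non-producing arrays. In both genes the unadjusted signals overlapped. The median log2 difference of the 922 tested probes on chromosome 4 was 0.27, and with chromosome medians removed Ccne2 was at 0.12, without a call (limma adjusted p = 0.335). For chromosome 7 the median was -0.10, and Ccne1 was at 0.53 in that setting and still passed.

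Cdk2, on chromosome 10, is the kinase that cyclin E activates. Its brightest probe, ILMN_1233064, read 11.84, 11.82 and 11.99 in producing 1 to 3, against 11.76, 11.79 and 11.76 in non-producing 1 to 3. The producing arrays were slightly higher without overlap, but the log2 difference of 0.11 (95% interval -0.07 to 0.30) did not pass (limma adjusted p = 0.322). ILMN_1250942 and ILMN_2717613 differed by 0.17 and 0.05 on the log2 scale, with limma adjusted p-values of 0.114 and 0.710. Only ILMN_2770759 passed, and narrowly. It read 9.75, 9.60 and 9.76 in the producing hybridoma, against 9.34, 9.49 and 9.49 in the non-producing hybridoma, a log2 difference of 0.27 ± 0.09 (SE; limma adjusted p = 0.0432). That call was lost on leaving out any single array other than producing 2, with limma adjusted p-values of 0.0702 to 0.123.

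Rb1, which encodes the pocket protein that holds E2F in check, did not differ beyond its spread. ILMN_2861644, for this gene on chromosome 14, read 10.32, 10.48 and 10.35 in producing 1 to 3, against 10.46, 10.31 and 10.36 in non-producing 1 to 3. The groups interleaved, and the log2 difference was 0.01 (95% interval -0.18 to 0.20; limma adjusted p = 0.964). ILMN_2679619 read 9.00, 8.75 and 9.09 in the producing hybridoma, against 8.98, 9.13 and 9.04 in the non-producing hybridoma, a log2 difference of -0.10 (95% interval -0.34 to 0.14; limma adjusted p = 0.494).

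E2f1, on chromosome 2, encodes the activating E2F factor bound by the retinoblastoma protein. Its probe ILMN_1231138 read 10.68, 10.86 and 10.78 in producing 1 to 3, against 10.88, 10.78 and 10.78 in non-producing 1 to 3. The ranges were nearly the same, and the log2 difference was -0.04 (95% interval -0.23 to 0.15; limma adjusted p = 0.749). In this fit, the intervals of both Rb1 probes and of E2f1 exclude changes as large as that of Ccne2, the smallest called change among the 10. That exclusion rests on quantile normalization, since with array medians set equal ILMN_2679619 lay at -0.39.

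How the arrays were brought to 1 brightness mattered for the rises. Quantile normalization, used for the values above, puts the median log2 difference of all tested probes at 0.00, and 50.1% of its 5906 called probes were higher. With array medians set equal (common median), the median of the tested probes lay at -0.22, and 12.8% of 6720 called probes were higher in the producing hybridoma. Without any normalization between arrays, a setting chosen after seeing the data, the median was -0.28 and 8.36% of 7293 calls were higher. Ccnd2 and Cdk6 passed as lower in every setting. Ccnd3 was at 0.41 with a common median (limma adjusted p = 0.0320) and at 0.34 without normalization (0.0784). Ccnd1, Ccne1 and Ccne2 kept positive signs but were not called in either setting, with values of 0.28, 0.15 and 0.11 at a common median. Cdk4 was then called lower, at -0.37 (limma adjusted p = 0.0237), and so was the Rb1 probe ILMN_2679619, at -0.39 (0.0167). Cdk2 turned to -0.14 and was not called.

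These settings differ only by 1 constant per array, so the values relative to the median of all tested probes are the same in both. On that scale Ccnd3 lay at 0.62, Ccnd1 at 0.50, Ccne1 at 0.37, Ccne2 at 0.32 and Cdk2 at 0.08. Rb1 lay at -0.07, E2f1 at -0.09, Cdk4 at -0.15, Ccnd2 at -0.64 and Cdk6 at -0.94. Ccnd1, Ccne1 and Ccne2 lay above that median in these settings, but distances from it were not tested and their differences from 0 were not called. Taking the median as reference centres the values again, much as quantile normalization does.

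**Figure D3:**
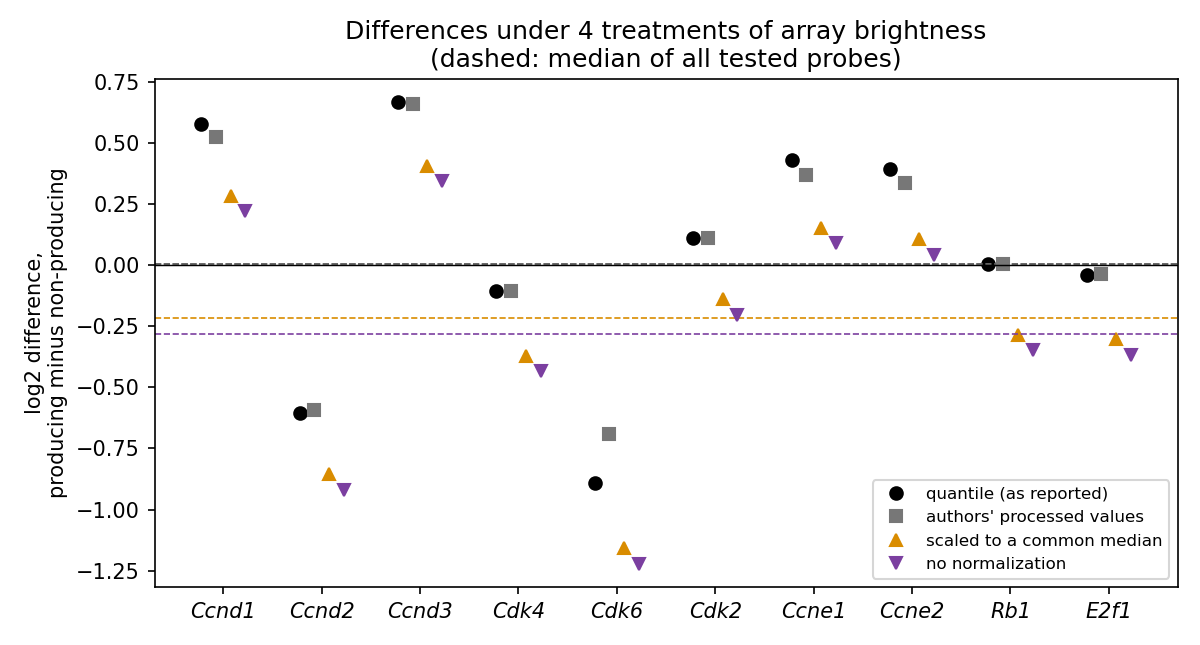
Log2 difference of the 10 genes, producing minus non-producing, under 4 treatments of array brightness, with dashed lines at the median of all tested probes in each. Under common-median scaling and without normalization every gene moves down with the dashed line. Ccnd2 and Cdk6 are lowest of the 10 and Ccnd3 is highest, and between these 2 treatments the order is fixed because they differ by a constant per array.

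A difference between 2 probes on the same array does not depend on the overall scaling of that array, so it describes whether family members shifted unequally. Its shift between the hybridomas restates the log2 differences of the 2 genes given above and is not separate evidence. Because probes bind with different strength, only the shift of such a difference between the hybridomas was read. The 7 pairs are all those within the D-type cyclins, the 3 kinases and the E-type cyclins. Over 3 against 3 arrays, 0.1 is the smallest two-sided exact permutation p possible, or 0.14 after Benjamini-Hochberg adjustment over the 7 pairs, so no pair could pass 0.05.

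Within the D-type cyclins, the balance moved away from Ccnd2. Ccnd3 minus Ccnd2 was 1.40, 0.95 and 1.29 on the producing arrays, against -0.07, 0.02 and -0.13 on the non-producing arrays. This log2 shift of 1.27 was the largest of the 7, and no array of one group reached the other (exact permutation p = 0.1). Ccnd1 minus Ccnd2 was -1.73, -2.03 and -1.67, against -3.04, -3.03 and -2.91 on the non-producing arrays, a shift of 1.18 that also left the groups apart (exact permutation p = 0.1). Ccnd3 minus Ccnd1 was 3.13, 2.98 and 2.96, against 2.97, 3.05 and 2.78 on the non-producing arrays. Here the groups overlapped, and the shift was 0.09 (exact permutation p = 0.5). With chromosome medians removed it turned to -0.31.

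Among the kinases, the balance moved away from Cdk6. Cdk4 minus Cdk6 was 5.39, 5.25 and 5.55 on the producing arrays, against 4.48, 4.65 and 4.71 on the non-producing arrays, a log2 shift of 0.79. Cdk2 minus Cdk6 was 4.95, 4.92 and 5.31, against 3.98, 4.13 and 4.06 on the non-producing arrays, a shift of 1.00. In both pairs the groups stood apart (exact permutation p = 0.1 each). Cdk4 minus Cdk2 was 0.45, 0.33 and 0.24, against 0.50, 0.52 and 0.65 on the non-producing arrays, a small shift of -0.22 without overlap (exact permutation p = 0.1). For the E-type cyclins the groups overlapped. Ccne1 minus Ccne2 was -0.16, -0.07 and 0.20, against -0.15, 0.03 and -0.03 on the non-producing arrays (shift 0.04, exact permutation p = 0.9). With chromosome medians removed this shift was 0.42, so the data do not show that the balance was kept.

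**Figure D4:**
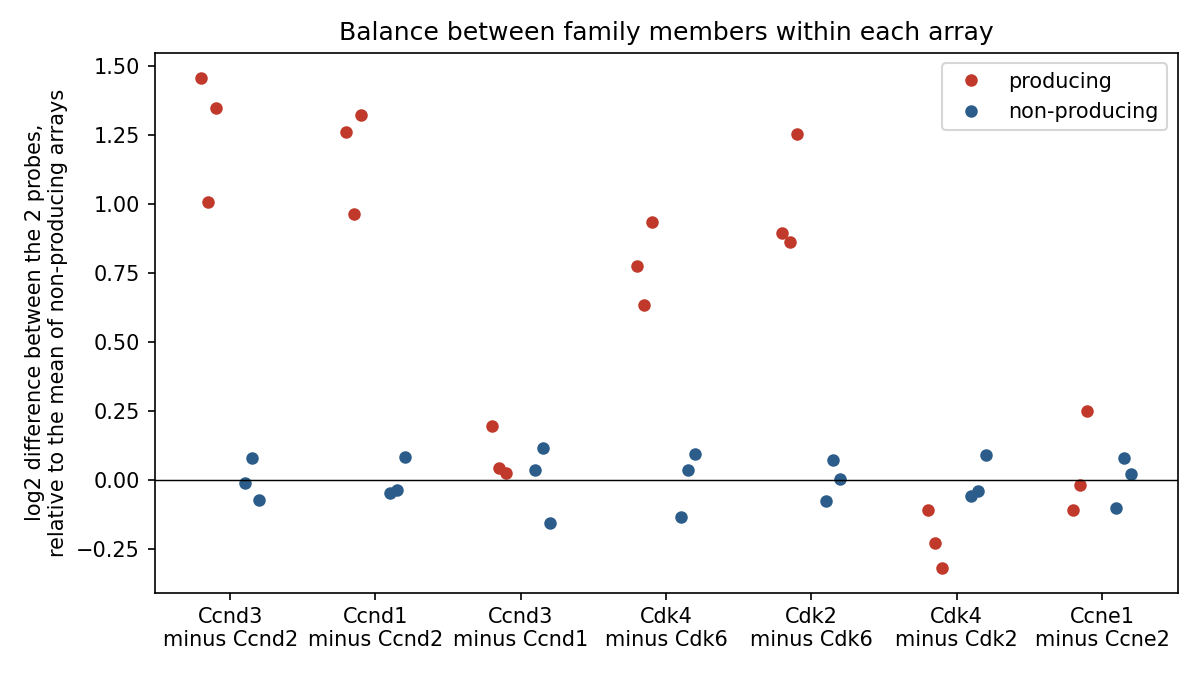
Difference in normalized log2 signal between 2 genes on the same array, shown relative to the mean of the non-producing arrays, with 1 point per array and the producing arrays left of the non-producing arrays. The pairs with Ccnd2 or Cdk6 as the second gene lie above the non-producing points, while Ccnd3 minus Ccnd1 and Ccne1 minus Ccne2 overlap them.

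The profile of Cdk6 over the 6 arrays was set against 9118 other tested genes, each centred on its own mean, by the root mean square difference in log2. The closest were Atg16l2, an autophagy gene (0.0337), Nup98, a nuclear pore component (0.0483), and Dmpk, a serine-threonine kinase of muscle (0.0492). Atg16l2 read 8.29, 8.35 and 8.08 in the producing hybridoma, against 9.22, 9.08 and 9.06 in the non-producing hybridoma. With 2 groups, such closeness mainly records a fall of like size and is given as a description.

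Around the 10 genes, 58 genes of 6 companion lists were tested, of which 8 were called higher and 10 lower in the producing hybridoma by their brightest probe. That is 31.0%, against 36.7% of all tested genes. The 8 include Fbxo31, whose other called probes point the opposite way. Of the 40 genes not called, 7 had another probe past the threshold (Tfdp2, Gsk3b, Ctnnb1, Mcm4, Rrm1, Rrm2 and Tyms), picked out here after their values were seen. For Ctnnb1 such probes pointed opposite ways, ILMN_2616556 at 0.59 and ILMN_2696575 at -0.39. The former was detected on the producing arrays only. These lists hold textbook genes of the same circuit. Among the inhibitors of cyclin-dependent kinases, 2 of 6 tested genes rose and none fell, 33.3% called against 36.7% of all tested genes. With chromosome medians removed, 1 was called higher. The median log2 difference was 0.24 in the reported setting, beside 0.00 over all tested genes.

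Cdkn2a, which encodes the Cdk4 and Cdk6 inhibitor p16 and the p53 activator p19Arf, had the largest rise of the 58. ILMN_1221177 read 10.20, 10.13 and 10.15 in producing 1 to 3, against 8.99, 8.97 and 9.07 in non-producing 1 to 3. The groups were far apart, with a log2 difference of 1.16 ± 0.07 (SE), 2.23-fold (limma adjusted p = 1.94e-05). Its other probes, ILMN_1226950 and ILMN_1227342, gave 1.21 and 1.17. Cdkn2a stayed called in every setting, the lowest value being 0.80 without normalization between arrays.

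Cdkn2c, which encodes the inhibitor p18, rose by 0.35 ± 0.10 (SE) on the log2 scale with its brightest probe ILMN_1228366 (limma adjusted p = 0.0346). Its probe ILMN_2420939 passed at 0.49 and ILMN_1215651 did not, at -0.05. The call of the brightest probe was lost without producing 1, producing 3, non-producing 1 or non-producing 3, with limma adjusted p-values of 0.0755 to 0.104. Like Ccne2, Cdkn2a, Cdkn2b, Cdkn2c and E2f2 lie on chromosome 4, and Cdkn1a lies on chromosome 17 like Ccnd3. With chromosome medians removed, Cdkn2a was at 0.88 and still called, Cdkn2b at 0.18 and Cdkn1a at -0.17. In that setting Cdkn2c was at 0.07 and not called. At a common median it was at 0.09 (limma adjusted p = 0.582), and without the filter on dim probes its call was lost as well (0.0702).

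The other inhibitors did not pass. Cdkn1a, which encodes p21, differed by 0.13 (limma adjusted p = 0.217) and Cdkn1b, which encodes p27, by 0.04 (0.929). Cdkn1b read 6.06, 6.27 and 6.90 in producing 1 to 3, against 6.70, 6.56 and 5.84 in non-producing 1 to 3, the widest spread among these genes. Cdkn2d, which encodes p19Ink4d, differed by -0.09 (limma adjusted p = 0.565) and was called lower at a common median, at -0.38 (0.0405). Cdkn2b, which encodes p15, differed by 0.46 (limma adjusted p = 0.0843), and by 0.67 with a call when producing 3 was left out (0.0110). Cdkn1c was not detected on any array.

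Of the other pocket proteins, E2F and DP factors, 1 of 11 tested genes rose, 3 fell and the other 7 were not called. The 3 include E2f8, which was tested only because the non-producing arrays detected it. The called share was 36.4%, against 36.7% of all tested genes. The median log2 difference was 0.00. E2f2, an activating E2F, read 11.00, 11.15 and 11.09 in producing 1 to 3, against 10.43, 10.38 and 10.46 in non-producing 1 to 3. This was a log2 difference of 0.66 ± 0.08 (SE; limma adjusted p = 0.000478), and a second tested probe gave 0.77. With chromosome medians removed E2f2 was at 0.38 and still called (limma adjusted p = 0.00765), and without normalization between arrays at 0.32 and not called (0.0919). E2f3, also an activator, read 8.62, 8.69 and 8.52 with ILMN_2743503, against 9.48, 9.27 and 9.30 in the non-producing hybridoma. It was lower by that probe at -0.74 ± 0.09 (SE; limma adjusted p = 0.000551), while ILMN_1214485 differed by 0.06 and did not pass.

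E2f5, a repressor that works with the other pocket proteins, read 7.33, 7.54 and 7.12 in the producing hybridoma, against 8.32, 7.99 and 8.03 in the non-producing hybridoma. The log2 difference was -0.79 ± 0.13 (SE; limma adjusted p = 0.00257). E2f8, an atypical repressor, was detected on 0 of the 3 producing arrays and on all 3 non-producing arrays. E2f8 thus met the detection filter only through the group where it was higher. Its p-value and call are therefore not independent of that filter. In the producing hybridoma its level was at least 1.30-fold lower, with means of 4.83 and 5.46 (normalized log2; limma adjusted p = 0.0236). That bound takes the faintest detected signal of each producing array, or the probe's own value where higher. The call of E2f8 was lost without producing 2, producing 3, non-producing 1 or non-producing 2, with limma adjusted p-values of 0.0519 to 0.0804. It was also lost without the filter on dim probes (0.0780) and with chromosome medians removed (0.0512).

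Among activators and turnover factors of the G1 complexes, 1 of 11 tested genes (Fbxo31) was called higher and 2 fell. The called share was 27.3%, against 36.7% of all tested genes, and the median log2 difference was -0.18. Fbxo4, an F-box protein linked to cyclin D1 turnover, read 8.65, 8.73 and 8.76 in producing 1 to 3, against 9.54, 9.48 and 9.53 in non-producing 1 to 3. Its log2 difference was -0.80 ± 0.07 (SE; limma adjusted p = 0.000132), and a second tested probe gave -0.90. Fbxo31, another F-box protein linked to cyclin D1, had probes in opposite directions. ILMN_2452855, its brightest, was higher by 0.78 on the log2 scale, while ILMN_1252057 and ILMN_2687032 were lower at -0.41 and -0.45, all past the threshold, so no direction can be given for the gene. Cdc25a, the phosphatase that activates Cdk2, was lower at -0.28 (limma adjusted p = 0.0334), a call lost on leaving out any 1 of the 6 arrays (0.0511 to 0.111).

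By their brightest probes, 3 of 16 tested E2F target genes of S phase entry passed (18.8%, against 36.7% of all tested genes). Cdt1 rose, Mcm6 and Ezh2 fell and the other 13 were not called. In 4 of the 13, other probes passed. Mcm4, a helicase subunit, was higher by 0.74 and 0.42 with ILMN_2752009 and ILMN_2752010 (limma adjusted p = 0.000605 and 0.0101). Tyms, thymidylate synthase, was higher by 0.59 and 0.41 with the dim probes ILMN_2441895 and ILMN_2441899 (0.00600 and 0.0248). Its brighter probes ILMN_2484707 and ILMN_1247173 differed by -0.08 and -0.02 and were not called, so no rise is read for the gene. Called probes of the ribonucleotide reductase subunits differed in direction, with Rrm1 at -0.53 with ILMN_2977624 (limma adjusted p = 0.00145) and Rrm2 at 0.31 with the dim ILMN_1239307 (0.0223). The brighter Rrm2 probes ILMN_2819319 and ILMN_2714565 differed by 0.06 and -0.17 and were not called. The count of called targets therefore depends on the probe read for each gene. The median log2 difference was 0.08. Cdt1, a licensing factor of replication origins, differed by 0.34 ± 0.07 (SE; limma adjusted p = 0.00984) and by 0.08 at a common median, where it was not called. Ezh2, the histone H3 lysine 27 methyltransferase, differed by -0.39 ± 0.08 (SE; limma adjusted p = 0.00940), and a second tested probe gave -0.36. Mcm6, a subunit of the replicative helicase, differed by -0.32 with ILMN_2803399 (limma adjusted p = 0.0266), while its other 3 probes did not pass. The call of Mcm6 was lost without producing 1, producing 3, non-producing 1 or non-producing 3 (0.0505 to 0.0818), and with chromosome medians removed (0.0628).

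Of 6 tested mitotic genes, 16.7% were called, against 36.7% of all tested genes. Only Cdc20, the activator of the anaphase-promoting complex, passed, at 0.23 (limma adjusted p = 0.0383). That call was lost on leaving out any 1 of the 6 arrays (0.0614 to 0.102), and the sign turned at a common median, at -0.03. The median of the mitotic genes was -0.07.

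Upstream regulators of the D-type cyclins held some of the larger differences. Of 8 tested, 2 rose and 3 fell, 62.5% called against 36.7% of all tested genes. The median log2 difference was -0.09. Lef1, a transcription factor of Wnt signalling, read 7.05, 6.45 and 6.32 in producing 1 to 3, against 7.85, 7.91 and 7.92 in non-producing 1 to 3. Its log2 difference of -1.29 ± 0.17 (SE; limma adjusted p = 0.000920) was the largest fall of the 58, and a second tested probe gave -0.92. Foxo1 is a forkhead factor that restrains Ccnd2 and Ccnd1 in other cell types. It read 7.95, 8.15 and 8.25, against 8.95, 8.86 and 8.94 in the non-producing hybridoma (log2 difference -0.80 ± 0.09, SE; limma adjusted p = 0.000501). Lef1, Foxo1 and E2f5 lie on chromosome 3, where the median log2 difference of the 729 tested probes was -0.20. With chromosome medians removed they were at -1.09, -0.60 and -0.59 and still called.

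Foxo3, a related forkhead factor, differed by -0.54 ± 0.08 (SE; limma adjusted p = 0.00122). The groups did not overlap for any of the 3 regulators that fell, which were picked by their calls, beside 51.3% of all tested genes. Notch1, a receptor that promotes Ccnd3 transcription in developing T cells, read 6.95, 7.05 and 6.99 in producing 1 to 3, against 6.63, 6.42 and 6.31 in non-producing 1 to 3. It rose by 0.54 ± 0.10 (SE) on the log2 scale (limma adjusted p = 0.00371) and was not called at a common median, at 0.28. Stat3, a cytokine-activated factor, rose by 0.31 ± 0.08 (SE; limma adjusted p = 0.0193). All 3 tested probes of Stat3 passed in that direction, but the value at a common median was 0.04 without a call. The call of its brightest probe was also lost without producing 1, producing 3 or non-producing 2 (0.0557 to 0.0630).

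**Figure D5:**
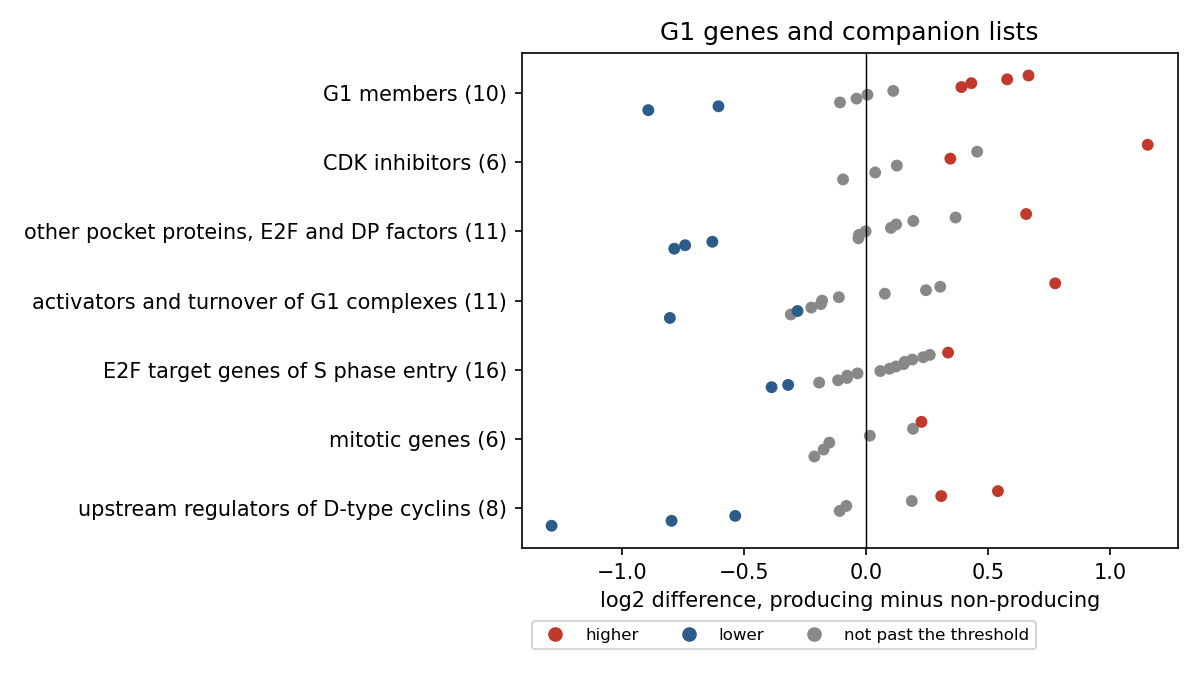
Log2 difference, producing minus non-producing, of the brightest tested probe of each gene, with 1 point per gene, for the 10 genes and the 6 companion lists (number of tested genes in brackets). Points past the threshold are red where higher and blue where lower, and the points of E2f8 and Fbxo31 carry the limits given in the text. Cdkn2a is farthest right and Lef1 farthest left, and most E2F target and mitotic genes lie near 0 by this probe.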

How the data were processed

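Total RNA of 6 hybridoma samples was labelled with an Ambion kit and read on Illumina bead arrays, per the labels' protocols. The deposited table without normalization holds linear bead signal intensity per probe and array. Beside it the authors deposited a detection score from 0 to 1, read here as 1 minus the detection p-value because it rises with signal. No signal was near 0, so background was taken as not subtracted. A second table of the authors holds intensity that was found to be quantile normalized, and was used as an alternative. The sources used here name no scanner or scanner setting.

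With limma 3.58.1 in R 4.3.3, neqc (offset 16, negative controls inferred from detection p-values) gave background-corrected, quantile-normalized log2 values. Probes detected (p under 0.05) on at least 3 of 6 arrays, 17445 of 45281, entered lmFit and eBayes (two-sided tests, no covariate), and p-values were adjusted over all of these probes by Benjamini-Hochberg. The fit was tested on simulated data for bias, false calls and sign. A first criterion, recovery of nearly all 2-fold differences built into those data, was not met and was replaced by these checks. Part of the built-in differences were missed, more among the smaller ones, so a gene that was not called may still differ. A gene was read from its brightest tested probe. One symbol was listed for 34885 probes, several for 18, and none for 10378. Chromosomes came from a RefSeq gene table (GRCm38.p6), and promoters from RefSeq. Exact permutation tests ran in SciPy 1.17.1.

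The genes and lists were chosen with earlier results of these data known. Named are every member probe, in each companion list the genes past the threshold up to 6 with the largest differences, all CDK inhibitors, Il17a and Il17f, the 3 genes nearest Cdk6, and the markers that give the cell type. Alternatives covered background correction, normalization, the authors' values, the filter, a replicate block, chromosome medians and leaving out each array. Replicate numbers did not pair the samples: deviations of same-numbered arrays correlated at -0.043, -0.164 and 0.088.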

Additional observations from a re-analysis of the deposited data

How the results depend on the processing

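The 6 called genes among the 10 stayed called in every fit that left out 1 array, with the replicate numbers as a block, and under each background correction and filter tried, and Ccne2 lost its call with chromosome medians removed. Without normalization between arrays, a setting chosen after seeing the data, 3 genes were called (Ccnd2, Cdk6 and Cdk4). The genes called higher numbered 1 with arrays scaled to a common median and 0 without normalization, against 4. Over the whole array, 862 and 610 of 17445 tested probes were called higher in these settings, against 2961. The median of all tested probes lay below 0 in both settings, and the cause was not tested. In these settings, common median first, Cdk2 stood at -0.14 and -0.20, its probes ILMN_1250942 at -0.118 and -0.18, ILMN_2717613 at -0.23 and -0.30 and ILMN_2770759 at -0.016 and -0.079, Rb1 at -0.28 and -0.35, the Cdk4 probe ILMN_2646203 at -0.13 and -0.20, Cdkn1a at -0.16 and -0.22, Cdkn1b at -0.21 and -0.28, and Cdc20 at -0.031 and -0.094. Stat3 was at -0.027 without normalization. At a common median the genes called lower numbered 7 rather than 2 among activators, 5 rather than 2 among E2F targets, 3 rather than 0 among mitotic genes and 5 rather than 3 among upstream regulators. Lower calls also grew over the whole array, to 5858 of 17445 tested probes rather than 2945. With chromosome medians removed, signs turned for Cdkn1a (-0.17), Cdc20 (-0.045) and the Rb1 probe ILMN_2679619 (0.0025). Leaving out 1 array at a time gave -0.041 to 0.049 for Rb1, -0.080 to 0.0061 for E2f1, -0.029 to 0.10 for ILMN_2717613, -0.22 to 0.21 for Cdkn1b and -0.065 to 0.12 for the balance of Ccne1 over Ccne2. Of the genes and probes whose sign turned, only Cdc20, Stat3 and ILMN_2770759 were called with the reported settings. With chromosome medians removed, chosen for these balances after seeing the data, the shift of Ccnd3 over Ccnd2 was 0.97, that of Ccnd3 over Ccnd1 -0.31 and that of Ccne1 over Ccne2 0.42. The shift of Cdk4 over Cdk6 was 0.58 without background correction and in the authors' values and 0.56 with normexp at an offset of 50, where Cdk2 over Cdk6 was 0.77. The replicate numbers did not pair the samples. With them as a block, Cdkn2c, Cdc25a, Cdc20 and ILMN_2770759 lost their calls (limma adjusted p = 0.0630 to 0.0903), and 5176 probes and 15 companion genes were called, against 5906 and 18. Over all settings, 4483 to 7293 probes and 13 to 27 companion genes were called. Of the values recomputed for single genes and probes, 525 kept direction and call, 68 lost the call, 7 gained one and 29 turned sign. Of the recomputed counts of higher or lower genes in companion lists, 75 differed from the reported count and 105 did not. Dim probes such as ILMN_2669793 and that of Cdk6 limit how well a difference can be sized.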
